A study of Mus musculus with 22 samples.

Results

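Myocd, Mrtfa, Mrtfb, Srf, Klf4, Klf5, Mef2a, Mef2c and Mef2d, 9 of the 28099 genes in the deposited table, were picked by symbol as transcription factors and coactivators that control smooth muscle contractile genes. Their RNA was compared across the arteries of 7 mouse tissues. The cells are labelled as arterial smooth muscle cells, isolated by fluorescence-activated sorting. The 22 libraries comprised 3 each from aorta, lung, kidney, bladder, stomach and heart, and 4 from intestine. All mice carried Acta2-CreERT and R26-GFP and received tamoxifen, 0.75 mg per 10 g body weight for 3 days. Heart came from mice with Cspg4-DreERT and the other 6 tissues from mice with Cspg4-Dre, so tissue and genotype cannot be told apart in heart. Acta2, the smooth muscle actin gene that names the Cre driver, is itself a classical target of the SRF complex; Cspg4 encodes NG2, a surface proteoglycan of pericytes and smooth muscle. The series asked how these cells differ between tissues and named no control tissue. Ages are not given in the sources used here. The labels do not state that each library was made from its own mouse, and p-values then speak only of the scatter among these libraries, part of which may be technical.

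SRF is a DNA-binding factor that sits on a short AT-rich sequence, the CArG box, in the promoters of contractile genes and of immediate-early genes. By itself it activates weakly. Myocardin (Myocd), found mainly in smooth and heart muscle, and the related coactivators MRTF-A (Mrtfa) and MRTF-B (Mrtfb) bind SRF and turn on contractile genes; the MRTFs are held in the cytoplasm by monomeric actin and released when actin polymerises. Ternary complex factors of the Ets family compete for the same surface of SRF and drive immediate-early genes instead. KLF4 represses contractile genes when smooth muscle changes phenotype, KLF5 is linked to proliferating smooth muscle and is abundant in gut epithelium, and the MEF2 factors act with myocardin and can drive its gene.

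Depth set how firmly each value could be read. The deposited signal is scaled per library. From its steps, 1 read was worth 9.4205, 4.0534 and 3.3027 units of signal in aorta 1, 2 and 3 and 8.0895 in heart 3, against 0.4216 to 1.3415 in the other 18 libraries. The rebuilt depth was 629456, 1540366 and 1927765 reads in the aorta libraries and 817157 in heart 3, and between 4389363 and 12708583 in the others. A count of 0 therefore allows a signal of up to 28.3, 12.2 and 9.9 in aorta 1, 2 and 3 and 24.3 in heart 3, for counting error only. The median correlation between replicate libraries over all tested genes was 0.752 in aorta and 0.824 in heart, against 0.889 to 0.977 elsewhere. Acta2 and Myh11, which mark smooth muscle, were above 0 in all 22 libraries, with lowest signals of 1343 in intestine 3 and 1379 in bladder 3. All 9 regulators passed the filter on low values. Their median signal per kilobase of exon over the 22 libraries was highest for Klf4, at 281.7, followed by Mef2d at 119.2 and Srf at 117.9. The lowest on that per-length scale were Mrtfa at 43.18, Klf5 at 31.72, Myocd at 30.2 and Mrtfb at 26.36.

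Promoter sequence was examined for the motifs on which these factors act. RefSeq windows (GRCm38.p6) of 300 bases, from 250 before to 50 after a start site, were held for 7 of the 9 genes, in 12 windows. Myocd and Klf5 had none in the table used. A CArG box, searched on both strands, was found in 1.63% of all 32851 windows of this length, and among the 7 genes it was found in Srf. Srf had 2 matches, which began 82 and 62 bases before the start site, and a match of the Ets core CCGGAA, a motif that 14.9% of all windows held, lay 34 bases upstream of the first. A MEF2 site was found in 3.19% of all windows, in Mef2a and in a window of Mrtfb. The window of Vcl, which encodes the focal adhesion protein vinculin, is shown as well because Vcl had the profile most like that of Mrtfa, as given further on. It held a CArG box that began 227 bases before the start. The 3 windows are printed 5′ to 3′ on the strand of the gene, with the CArG boxes of Srf and Vcl and the MEF2 site of Mef2a in capitals; no CCGGAA match overlapped them.
Srf (chr17:46556113-46556412, minus strand): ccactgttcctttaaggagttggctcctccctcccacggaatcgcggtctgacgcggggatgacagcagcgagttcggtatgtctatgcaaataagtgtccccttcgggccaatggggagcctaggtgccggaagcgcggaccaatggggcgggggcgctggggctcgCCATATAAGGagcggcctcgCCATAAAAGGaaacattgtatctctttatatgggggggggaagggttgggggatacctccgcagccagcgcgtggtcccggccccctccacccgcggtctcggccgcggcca
Vcl (chr14:20929148-20929447, plus strand): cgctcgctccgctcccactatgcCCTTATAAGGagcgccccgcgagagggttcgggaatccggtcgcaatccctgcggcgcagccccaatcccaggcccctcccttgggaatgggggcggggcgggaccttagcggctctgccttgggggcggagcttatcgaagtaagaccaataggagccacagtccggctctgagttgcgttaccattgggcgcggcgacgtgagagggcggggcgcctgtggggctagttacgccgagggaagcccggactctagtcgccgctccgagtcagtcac
Mef2a (chr7:67372809-67373108, minus strand): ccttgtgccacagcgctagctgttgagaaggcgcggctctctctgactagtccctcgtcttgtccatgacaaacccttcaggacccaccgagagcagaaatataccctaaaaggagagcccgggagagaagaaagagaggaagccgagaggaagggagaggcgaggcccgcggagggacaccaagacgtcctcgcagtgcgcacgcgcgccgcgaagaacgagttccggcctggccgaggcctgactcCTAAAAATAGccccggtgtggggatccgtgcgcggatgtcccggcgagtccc
These matches describe the windows and were not measured as bound sites.

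Expression differed between tissues for 6 of the 9 genes by limma's F test on log2(signal + 1), at an adjusted p under 0.05, a threshold that 59.6% of all 16917 tested genes passed. Klf5 (adjusted p = 2.4e-08), Klf4 (4.25e-07) and Mef2c (1.88e-05) had the smallest values. Mrtfa (0.000679), Mef2d (0.00899) and Myocd (0.0375) followed. Srf (0.0978), Mrtfb (0.121) and Mef2a (0.267) missed the threshold. Without the 3 aorta libraries, 60.9% of tested genes passed. Srf (0.0246), Mrtfb (0.0246), Mef2d (0.0247) and Myocd (0.00867) then passed together with Klf4, Klf5 and Mef2c, while Mrtfa (0.12) and Mef2a (0.204) did not. All 9 passed with array weights and with voom on rebuilt reads, where 81.7% and 69.2% of all genes passed. With edgeR on rebuilt reads 4 passed, without Myocd (0.142) and Mef2d (0.0592), where 57.4% of all genes did. Of 21 tissue pairs, 20.9% of gene-by-pair tests were called over all genes, and 15.0% in the 15 pairs outside aorta. Klf5 was called in 16 pairs, Klf4 in 15 and Mef2c in 12, of which 12, 11 and 9 lay outside aorta. Every called pair of Mrtfa (6), Mef2d (5), Srf (4), Myocd (3) and Mrtfb (2) included aorta in this fit, and limma called no pair of Mef2a. At an unadjusted p under 0.05, Mrtfa, Mrtfb and Srf still had no pair outside aorta, while Myocd and Mef2a had 2 each and Mef2d 3. Other fits did call pairs outside aorta. Array weights called 6 pairs each for Myocd and Mrtfa, 2 for Mrtfb, 1 for Srf and 3 for Mef2d, and voom called 2 for Myocd, 1 for Mrtfa and 3 for Mef2d. DESeq2 on rebuilt reads called 2 pairs each for Myocd, Mrtfa and Mrtfb, 1 for Srf and 3 for Mef2d. EdgeR called 1 for Myocd, and a pseudocount of 10 gave 2 for Myocd.

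**Figure D1:**
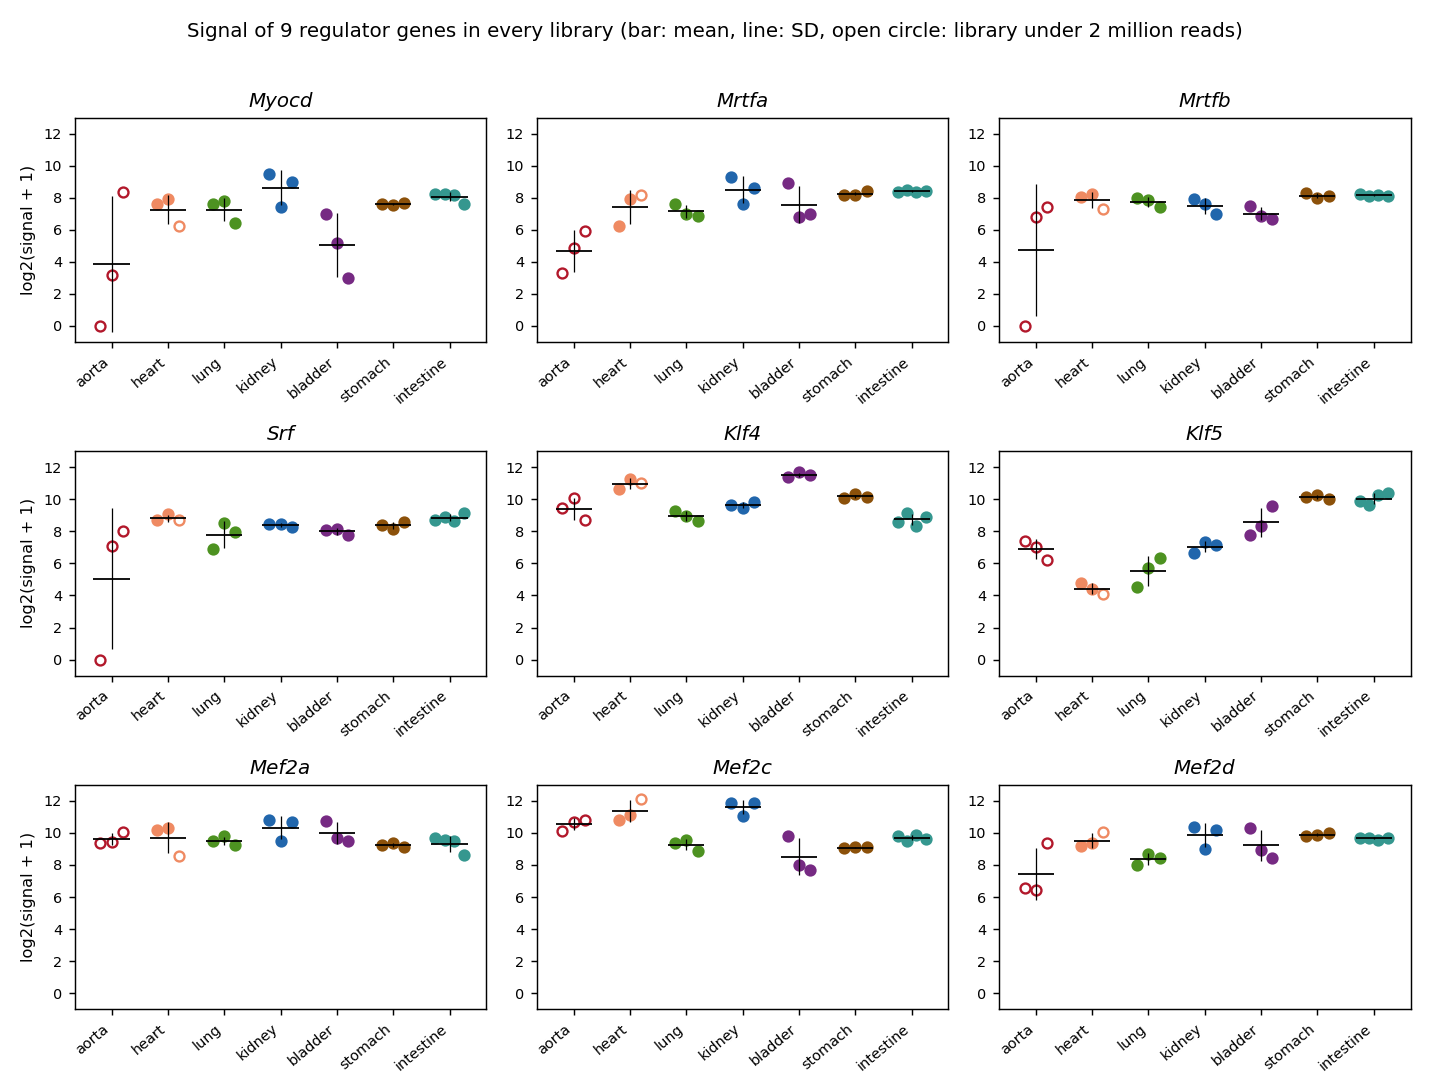
Signal of each regulator as log2(signal + 1) on the y axis, in the libraries of 7 tissues on the x axis; circles are libraries, horizontal bars means and vertical lines SD, and open circles are the 3 aorta libraries and heart 3. Klf5 runs from 16 in heart 3 to 1320 in intestine 4, while Srf, Mrtfb and Myocd reach 0 in aorta 1.

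Myocd lies on chromosome 11 (mm39, 65067387 to 65160815, minus strand, ENSMUSG00000020542). Its signal was 711, 169 and 512 in kidney 1 to 3 and 295, 298, 294 and 196 in intestine 1 to 4. It was 192, 188 and 205 in stomach, 192, 218 and 86 in lung, and 199, 240 and 73 in heart. The low tissues were bladder, at 126, 35 and 7, and aorta, at 0, 8 and 334. Bladder libraries thus spanned a wider range than those of stomach, and only bladder 1 reached into the range of lung and heart. In aorta the 3 values were 0, 2 and 101 rebuilt reads, and aorta 3 lay above every lung, heart, stomach, bladder and intestine library. Libraries of neighbouring tissues in the order kidney, intestine, stomach, lung, heart, bladder, aorta overlapped, and limma called none of these pairs. In the fit of all 22 libraries the log2 difference of bladder from the mean of the other 6 tissues was -2.06 ± 1.03 (SE), with an adjusted p of 0.205 by limma, where 7.4% of all genes were called lower. Without the aorta libraries, whose values of Myocd ran between 0 and 334, Myocd fell by 2.71 ± 0.58 in bladder against the other 5 tissues (adjusted p = 0.00236), in a comparison that called 14.1% of genes lower. In that fit, in which 23.9% of all gene-by-pair tests were called, bladder was below each of the other 5 tissues. The difference was largest against kidney, which was 3.58 ± 0.75 higher (adjusted p = 0.00219), and smallest against heart, which was 2.20 ± 0.75 higher (0.0418). Kidney was 2.11 ± 1.03 above the other 6 tissues, with an adjusted p of 0.219.

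Mrtfa (chromosome 15, 80896482 to 81074958, minus strand, ENSMUSG00000042292) had a signal of 9, 28 and 59 in aorta 1, 2 and 3. Outside aorta its lowest value was 73, in heart 1, and its highest 617, in kidney 1, so aorta did not overlap any other library. Gut libraries were close together, at 293, 292 and 336 in stomach and 328, 365, 324 and 341 in intestine. Kidney (617, 193, 387), bladder (481, 111, 126) and heart (73, 245, 283) varied more between libraries, and lung held 193, 124 and 117. Mrtfa fell by 3.19 ± 0.49 in aorta on the log2 scale against the other 6 tissues (adjusted p = 5.89e-05), and each of the 6 pairs with aorta was called, down to lung, which was 2.45 ± 0.65 above aorta (0.0123). The aorta values rest on 1, 7 and 18 reads.

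Mrtfb (chromosome 16, 13074345 to 13235393, plus strand, ENSMUSG00000009569) was at 0, 113 and 168 in aorta. It was at 181, 115 and 102 in bladder and between 124 and 312 in every library of the other 5 tissues. Bladder 2 and 3 were thus the lowest libraries outside aorta. The difference of bladder from the other 6 tissues was -0.34 ± 0.88 in the fit of all libraries (adjusted p = 0.866). Without the aorta libraries Mrtfb fell by 0.86 ± 0.24 in bladder (adjusted p = 0.0138), which was then called below intestine, by 1.14 ± 0.29 (0.00771), and below stomach, by 1.12 ± 0.31 (0.0131). Gut libraries again lay close together, at 257 to 312 in stomach and 276 to 302 in intestine.

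Srf (chromosome 17, 46859255 to 46867101, minus strand, ENSMUSG00000015605) had its highest levels in intestine and heart. It was at 415, 469, 406 and 574 in intestine and 413, 531 and 413 in heart. Kidney held 353, 350 and 307, stomach 332, 288 and 385, and bladder 276, 284 and 217. Lung held 116, 365 and 248 and overlapped with kidney, stomach and bladder, and aorta held 0, 134 and 264. Without the aorta libraries Srf fell by 0.71 ± 0.24 in lung against the other 5 tissues (adjusted p = 0.0371), where 14.3% of genes were called lower; with them the difference was -0.13 ± 0.93 (adjusted p = 0.952), against 3.48% of genes called lower and 4.43% higher. Lung 1, at 116, was the lowest library outside aorta. In the fit without aorta, lung was below intestine by 1.07 ± 0.29 (adjusted p = 0.00905) and below heart by 1.03 ± 0.31 (0.0356), and bladder was below intestine by 0.84 ± 0.29 (0.0417).

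Aorta against the other 6 tissues needed the most care. Limma on log2(signal + 1) called 6 of the 9 regulators lower in aorta, in a comparison where 42.8% of all genes were called lower and 9.15% higher and where the median over all tested genes was itself -1.04. Myocd fell by 3.46 ± 1.03 (adjusted p = 0.00983), Srf fell by 3.33 ± 0.93 (0.00653) and Mrtfb fell by 2.99 ± 0.88 (0.00899). Each of these was at 0 in aorta 1, where 0 reads allow a signal of up to 28.3; the lowest values outside aorta were 7 for Myocd, 116 for Srf and 102 for Mrtfb. Mef2d fell by 1.98 ± 0.45 (0.00158) and Klf4 fell by 0.59 ± 0.22 (0.0291), a smaller difference than the median of all genes. Fits with array weights or on rebuilt reads called fewer of them. With array weights, which ranged from 0.0746 to 0.204 in the aorta libraries, Mrtfa and Mef2d remained, where 10.8% of all genes were called lower. Voom on rebuilt reads kept Mrtfa, Mrtfb and Srf (14.3% of genes lower), edgeR on rebuilt reads kept Mrtfa (15.4%), and DESeq2 kept Mrtfa, Mrtfb, Srf and Mef2d (22.4%). The difference of Myocd was -0.49 in edgeR and -0.60 ± 0.75 in DESeq2, with adjusted p of 0.674 and 0.551. Leaving out aorta 1 brought Myocd to -1.54 ± 0.94 (adjusted p = 0.194), Mrtfb to -0.62 ± 0.30 (0.104) and Srf to -0.81 ± 0.31 (0.044), and Klf4 was then no longer called (0.0717), nor was it with median-of-ratios scaling (0.0756). Without aorta 2 Myocd was at -3.12 ± 1.25 (0.0497), Mrtfb at -4.03 ± 0.98 (0.00339) and Srf at -4.35 ± 1.05 (0.00335). Without aorta 3 Myocd was at -5.73 ± 0.80 (1.82e-05), Mrtfb at -4.32 ± 0.91 (0.0008) and Srf at -4.84 ± 0.93 (0.00039). Klf4 was not called without aorta 3 either (0.349). The size of these differences thus depended on which aorta library was left out. Mrtfa passed in all 30 alternatives that held aorta libraries, at -3.80 to -2.50. Aorta 3 also held a summed signal of 25502 for 12 skeletal muscle markers, against 489 and 994 in aorta 1 and 2, and had the highest of the 3 aorta values for every regulator other than Klf4 and Klf5, for which it had the lowest; the part of such RNA in those values was not tested.

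**Figure D2:**
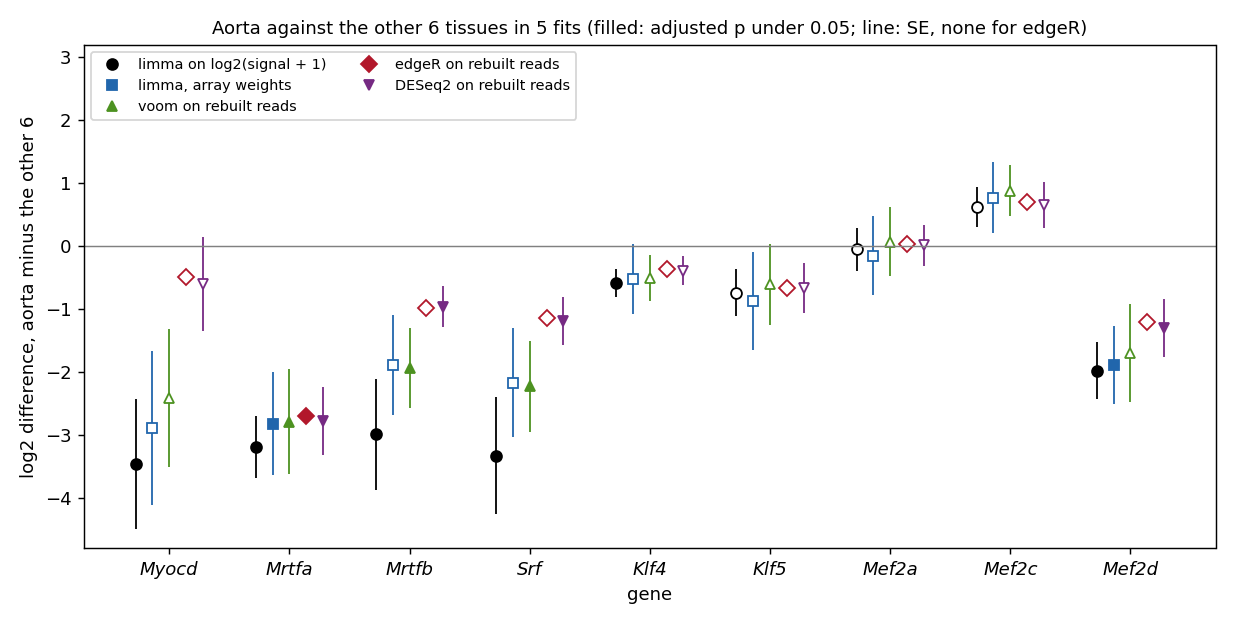
Log2 difference between aorta and the mean of the other 6 tissues on the y axis for the 9 regulators on the x axis, in 5 fits; filled symbols have an adjusted p under 0.05, and lines are the SE, which edgeR does not give. Mrtfa is filled in all 5 fits, at -3.19 in limma and -2.70 in edgeR, while Myocd moves to -0.49 in edgeR.

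Klf4, the repressor of contractile genes (chromosome 4, 55527143 to 55532466, minus strand, ENSMUSG00000003032), had the strongest signal of the 9 per kilobase and was highest in bladder and heart. Its signal was 2733, 3276 and 2894 in bladder and 1602, 2513 and 2039 in heart. It was 1103, 1276 and 1123 in stomach, 796, 700 and 922 in kidney, and 697, 1094 and 423 in aorta. It was lowest in lung, at 628, 507 and 408, and in intestine, at 391, 555, 324 and 483. Every bladder library was above every library of the other 6 tissues, and no heart library overlapped with stomach, kidney, aorta, lung or intestine. Klf4 rose in bladder by 1.87 ± 0.22 on the log2 scale against the other 6 tissues (adjusted p = 1.01e-05), where 8.31% of all genes were called higher, and in heart by 1.22 ± 0.22 (0.000685), where 6.03% were. It fell by 1.38 ± 0.19 in intestine (2.54e-05), with 9.97% of genes called lower there, and fell by 1.10 ± 0.22 in lung (0.00331). Bladder exceeded intestine by 2.78 ± 0.27 (2.73e-07), a ratio of 6.88. Of the neighbours in the order bladder, heart, stomach, kidney, aorta, lung, intestine, limma called heart over stomach (0.79 ± 0.28, adjusted p = 0.0468). Bladder and heart did not overlap either, nor did stomach and kidney, but these pairs missed the threshold, with bladder 0.55 ± 0.28 above heart (0.222) and stomach 0.54 ± 0.28 above kidney (0.292). Kidney and aorta, aorta and lung, and lung and intestine overlapped and were not called. The bladder, heart and intestine calls held in all 32 alternatives, and the lung call was lost without lung 3 (adjusted p = 0.0509).

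Klf4 is also an immediate-early gene in many cells, and its levels are set beside those of such genes here. The 12 immediate-early genes listed as SRF targets, which include Fos and Egr1, summed to 34726, 42733 and 46439 in bladder 1 to 3 and to 35483, 34526 and 125032 in heart 1 to 3. They summed to 14896 to 18696 in intestine, where Klf4 was lowest, and to 23647 to 30940 in lung. Stomach held 18090 to 21633 and kidney 20949, 24806 and 41792. Egr2, an early growth response factor, rose in bladder by 2.69 ± 0.32 (adjusted p = 1.52e-05) and in heart by 2.58 ± 0.32 (3.2e-05), and fell by 3.42 ± 0.29 in intestine (3.2e-08). Aorta did not follow, with sums of 114677, 91700 and 61668 beside Klf4 signals of 697, 1094 and 423. Nor did stomach, where every sum was below every lung sum while Klf4, at 1103 to 1276, was above lung, at 408 to 628. Kidney 3, at 41792, lay within the range of the bladder sums with Klf4 at 922. Markers of other cells differed too. In bladder, where 8.31% of all genes were called higher, 9 of 10 tested immune markers and 7 of 12 fibroblast markers rose. In heart none of either list rose, while 4 immune and 2 fibroblast markers fell, with 12.4% of all genes called lower. The part of a shared early response, or of RNA from such cells, in the Klf4 levels was not tested. Klf4 was also among the 3 regulators that came near a read ceiling, with 1.154 reads per exonic base in its deepest library. That is above 0.5, the limit past which the signal of a gene was taken as possibly held down. The limit was set by hand and not estimated from these data. Klf5 reached 0.553 and Mef2c 0.517. Of the 12 immediate-early genes 11 came near this ceiling, so their sums may also follow what 1 read is worth in a library.

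Klf5 (chromosome 14, 99536127 to 99552472, plus strand, ENSMUSG00000005148) had the smallest F test p of the 9, with gut at the top and heart at the bottom. Its signal was 1152, 1234 and 1050 in stomach and 945, 797, 1212 and 1320 in intestine. Bladder held 221, 316 and 758, kidney 100, 160 and 144, and aorta 170, 130 and 73. Lung held 22, 52 and 81, and heart 27, 20 and 16, the last from 2 rebuilt reads and under the limit of 24.3 that 0 reads would allow. All gut libraries were above all others, bladder overlapped with neither gut nor kidney, and the lung and heart ranges overlapped. Klf5 rose in stomach by 3.08 ± 0.37 (adjusted p = 4.77e-06) and in intestine by 2.93 ± 0.33 (1.59e-06) against the other 6 tissues, in comparisons that called 13.4% and 15.5% of all genes higher. It fell by 3.61 ± 0.37 in heart (4.22e-06), with 12.4% of genes called lower there, and fell by 2.32 ± 0.37 in lung (0.000501). The gap between stomach and heart was 5.73 ± 0.49 (5.43e-08). Bladder was 1.21 ± 0.37 above the other 6 tissues (0.0314), a call that was lost without bladder 2, without bladder 3, with array weights and with no filter on low values. Stomach and intestine overlapped and were not called, and the same held for kidney and aorta, aorta and lung, and lung and heart. The other neighbours were called, with intestine 1.48 ± 0.45 above bladder (0.0292) and bladder 1.50 ± 0.49 above kidney (0.045).

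Klf5 was highest in gut and lowest in heart, as were markers of epithelium, a cell type in which Klf5 is normally abundant. The 12 epithelial markers listed, which include Cdh1 and Epcam, summed to 9741 to 12217 in stomach and 6097 to 8755 in intestine, and to 42 to 146 in heart. Of the 12, 9 rose in stomach, 9 rose and 1 fell in intestine, 4 rose and 1 fell in bladder, and all 12 fell in heart. Other tissues ran less in parallel: 5 rose in kidney and 11 fell in aorta, where Klf5 was not called, and 1 rose in lung, where Klf5 fell. Over all genes 13.4% were called higher in stomach, 15.5% in intestine, 8.31% in bladder, 6.35% in kidney and 4.43% in lung. Lower calls made up 12.4% in heart and 42.8% in aorta. Within bladder the sum was 735, 832 and 6066 beside Klf5 signals of 221, 316 and 758, so the library with most epithelial signal had most Klf5. Kidney held sums of 676, 2979 and 3053 with Klf5 at 100, 160 and 144. Cdh1, the epithelial cadherin, was at 3758, 3826 and 2856 in stomach and 0 in every heart and aorta library; aorta held Klf5 at 170, 130 and 73 with epithelial sums of 198 to 591. Markers of visceral muscle and interstitial cells also moved in gut and heart, though not only there. Of 11 tested, 7 rose and 1 fell in stomach, 6 rose in intestine, and 3 rose and 7 fell in heart. In lung, where Klf5 fell, 4 rose and 2 fell. Bladder had 3 higher and 4 lower, kidney 2 higher and 6 lower, and aorta 1 higher and 7 lower. Their sums overlapped more between tissues, at 5896 to 7113 in stomach, 8008 to 9729 in intestine, 4727 to 7685 in bladder, 7149 to 7786 in lung and 3899 to 5719 in heart. The part of epithelial or visceral muscle RNA in the Klf5 signal was not tested, and in bulk RNA fewer cells of a type and less RNA per cell cannot be told apart.

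**Figure D3:**
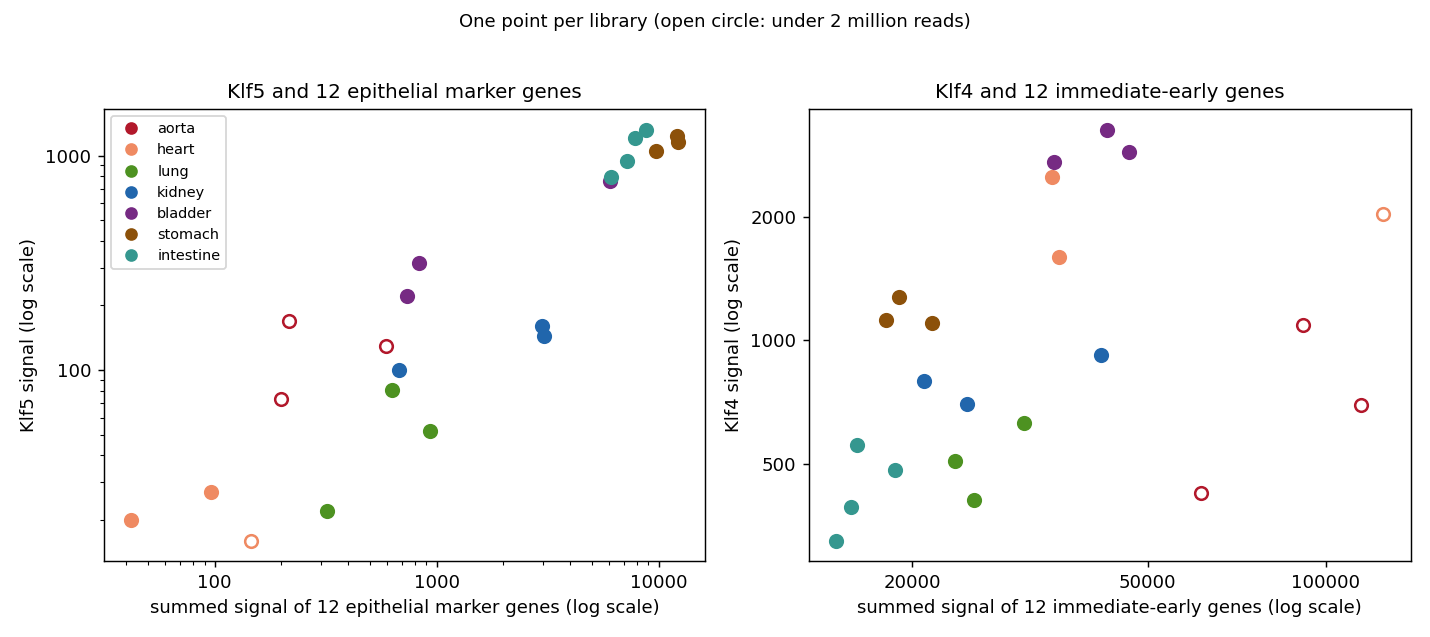
Klf5 signal against the summed signal of 12 epithelial markers (left) and Klf4 signal against the summed signal of 12 immediate-early genes (right), on log axes, with 1 point for each library coloured by tissue and open circles for aorta and heart 3. Bladder 3, at 758 and 6066, lies beside the gut libraries on the left, and on the right the aorta libraries have sums of 61668 to 114677 with Klf4 between 423 and 1094.

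The balance of Klf4 and Klf5 differed between tissues. On the per-kilobase scale the mean signal of Klf4 was 672.8 in heart against 4.038 for Klf5. In intestine the means were 143.7 for Klf4 and 205.4 for Klf5. Intestine was the only tissue where Klf5 had the higher mean per kilobase.

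Mef2c, which lies on chromosome 13 (83652153 to 83815199, plus strand, ENSMUSG00000005583) and acts early in heart and vascular development, was highest in kidney and heart and lowest in bladder. Its signal was 3705, 2167 and 3744 in kidney and 1817, 2222 and 4433 in heart. It was 1130, 1617 and 1820 in aorta, 907, 716, 919 and 794 in intestine, and 664, 764 and 465 in lung. Stomach held 522, 556 and 552, and bladder 907, 257 and 204. Kidney and heart overlapped with each other and lay above all lung, intestine, stomach and bladder libraries, while bladder 1 stood apart from bladder 2 and 3. Mef2c rose in kidney by 1.86 ± 0.32 against the other 6 tissues (adjusted p = 0.0006), where 6.35% of genes were called higher and 4.11% lower, and in heart by 1.57 ± 0.32 (0.0024). It fell by 1.75 ± 0.32 in bladder (0.000843) and fell by 1.08 ± 0.32 in stomach (0.0223), with 6.93% of genes called lower in stomach. The kidney, heart and bladder calls held in all 32 alternatives, including those without heart 3, and the stomach call was lost when any 1 stomach library was left out. Limma called no neighbouring tissues in the order kidney, heart, aorta, intestine, lung, stomach, bladder, although all aorta libraries lay above all intestine libraries (0.85 ± 0.39, adjusted p = 0.0785); the other neighbours overlapped. Endothelial cells and cardiomyocytes also express Mef2c. The 12 endothelial markers summed to 6820, 13143 and 7420 in kidney 1 to 3 and 7362 to 10317 in heart. They summed to 2479 to 3891 in bladder and 1328 to 3287 in aorta. Lung held 5570 to 6995, stomach 5472 to 6642 and intestine 4866 to 7007, with Mef2c between 465 and 919 there. Kidney 1, at 6820, had Mef2c at 3705. The cardiomyocyte markers summed to 3119 to 5228 in heart and 448 to 2146 in kidney, against 3318 to 3592 in lung and 117 to 542 in bladder, and of 11 tested 7 rose in heart. The part of endothelial or cardiomyocyte RNA in the Mef2c signal was not tested.

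Mef2d (chromosome 3, 88049679 to 88079393, plus strand, ENSMUSG00000001419) and Mef2a (chromosome 7, 66880911 to 67022606, minus strand, ENSMUSG00000030557) are more widely expressed factors of the same family. Mef2d was at 253, 415 and 347 in lung and at 94, 85 and 647 in aorta. In the other 5 tissues it lay between 345, in bladder 3, and 1333, in kidney 1. Aorta 3 lay above every lung library, and aorta 1 and 2 below them. Without the aorta libraries Mef2d fell by 1.25 ± 0.31 in lung against the other 5 tissues (adjusted p = 0.00755), and stomach, kidney and intestine were each called above lung, stomach by 1.52 ± 0.40 (0.00798). In the fit of all libraries the lung difference was -0.89 ± 0.45 (adjusted p = 0.241). Mef2a ranged from 380 in heart 3 to 1828 in kidney 1, and stomach (598, 656 and 568) lay below all aorta, kidney and bladder libraries. Its differences from the other 6 tissues ran from -0.50 ± 0.34 in stomach to 0.77 ± 0.34 in kidney (adjusted p = 0.169), and limma called it in no tissue. Array weights called Mef2a higher in kidney (0.86 ± 0.28, adjusted p = 0.0339) and lower in stomach (-0.63 ± 0.17, 0.00417), and DESeq2 called it higher in kidney (0.86 ± 0.32, 0.043). At an unadjusted p under 0.05 limma had 1 tissue and 2 pairs, and of the 21 pairs array weights called 4, DESeq2 3, and voom and edgeR 2 each.

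**Figure D4:**
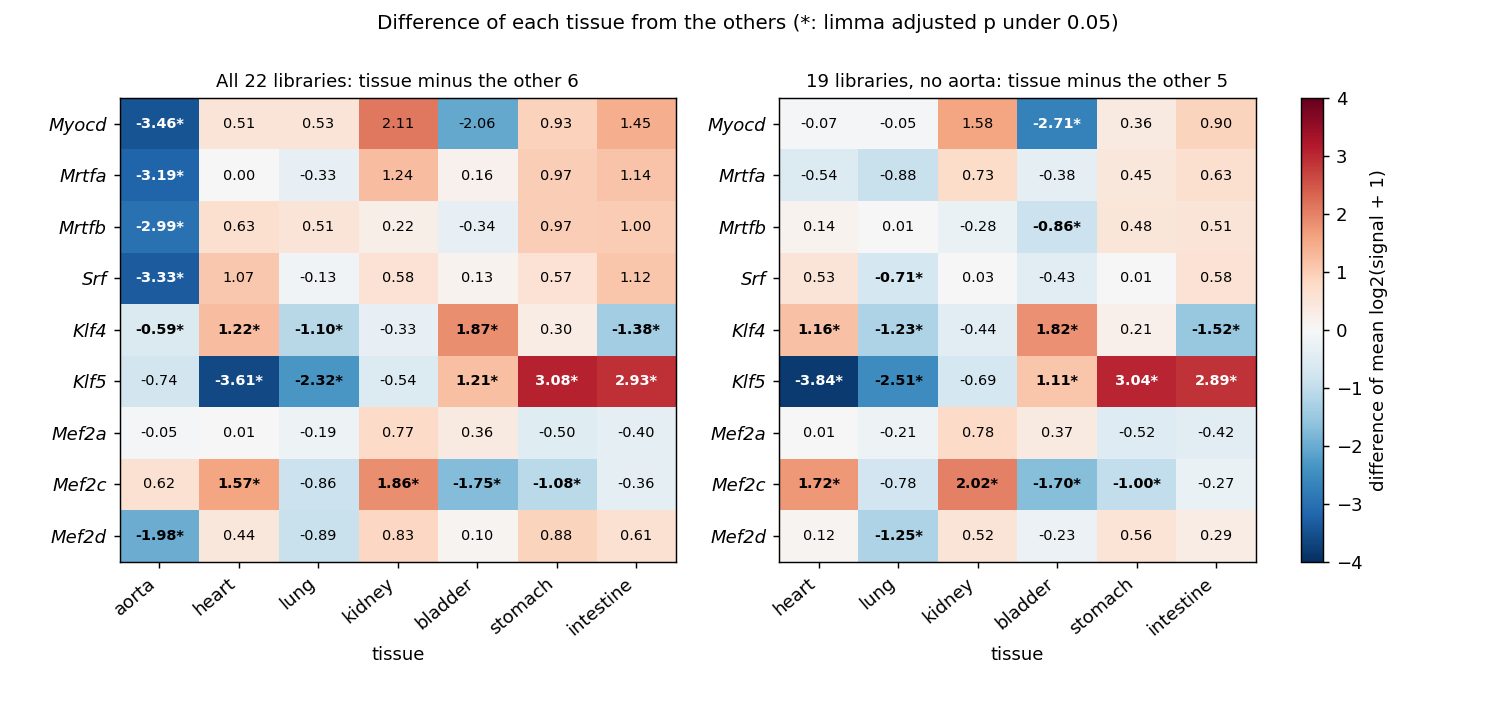
Differences of mean log2(signal + 1) between each tissue and the others, by gene and tissue, with all 22 libraries (left) and without the aorta libraries (right); an asterisk marks a limma adjusted p under 0.05. Klf4, Klf5 and Mef2c keep their outlying tissues on both sides, and Myocd in bladder is at -2.06 on the left and -2.71 on the right, where it is called.

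Libraries of a tissue differed together. In bladder, library 1 was the highest of the 3 for Myocd, Mrtfa, Mrtfb, Mef2a, Mef2c and Mef2d, and not for Srf, Klf4 or Klf5. The same libraries had 800, 179 and 15 for Cspg4 and sums of 17025, 7775 and 4149 for 12 pericyte markers. In kidney, library 2 was the lowest for Myocd, Mrtfa, Klf4, Mef2a, Mef2c and Mef2d, with 65 for Cspg4 against 2321 in kidney 1 and 2542 in kidney 3, and 11587 for the pericyte markers against 18191 and 26840. Endothelial markers summed to 13143 in kidney 2 and to 6820 and 7420 in kidney 1 and 3. These markers thus differed between libraries of 1 tissue together with the regulators, and their part in the tissue differences was not tested.

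Of 32 listed contractile genes that SRF and myocardin drive, 15 fell and none rose in bladder by limma (18 and 0 at an unadjusted p under 0.05), where 7.4% of all genes were called lower, with a median log2 difference of -0.72 against 0.06 over all tested genes. Kcnmb1, the smooth muscle subunit of the large-conductance potassium channel, was at 371, 394 and 141 in bladder and at 621 or more in every other library, and it fell by 2.27 ± 0.20 (adjusted p = 6.13e-07). Lmod1, a nucleator of actin filaments in smooth muscle, was at 647, 556 and 330 in bladder, below every other library, and fell by 1.72 ± 0.19 (6.5e-06). Itga8, integrin alpha 8, was at 1406, 196 and 93 in bladder 1 to 3 and fell by 2.26 ± 0.52 (0.00545). Aoc3, a surface amine oxidase of smooth muscle, was at 1245, 272 and 121 and fell by 1.93 ± 0.43 (0.00442). For both genes bladder 1 lay above every stomach library, while bladder 2 and 3 lay below every library of the other tissues. Of the same 32 genes, 15 fell and 1 rose in intestine, where 9.97% of all genes were called lower, with a median difference of -0.42 against 0.34. In stomach 9 fell and 1 rose, where 6.93% were called lower, with a median of -0.71 against 0.3. Without the aorta libraries 12 fell in bladder, 7 in intestine and 5 in stomach. Of 16703 genes, 2362 (14.1%) were then called lower in bladder, 1941 in intestine and 1617 in stomach. In heart 7 rose and 1 fell. Without the aorta libraries 21 rose there, but 9 when heart 3 was also left out. Over all genes 1020, 1929 and 1455 were called higher in heart in these fits. In aorta 19 rose and none fell, also at an unadjusted p, with a median of 1.04, beside the lower calls of Myocd, Srf and both MRTF genes there. Of the 32 genes 24 came near the read ceiling, where the signal may follow what a read is worth in a library. That worth was highest in aorta and heart 3. It was 0.4216 to 0.5772 in intestine and 0.464 to 0.6654 in stomach, against 0.7765 to 1.3415 in bladder and 0.456 to 1.1337 in kidney. The part of the ceiling in the lower calls of intestine and stomach was not tested. Lung had 3 higher and kidney 1 higher and 3 lower. Markers of other cells moved with bladder, where 9 of 10 tested immune markers and 7 of 12 fibroblast markers rose.

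Immediate-early genes, the other class of SRF targets, fell in intestine. Of 12, 11 fell in intestine and 5 in stomach, and limma called none higher in either, also at an unadjusted p under 0.05. Without the aorta libraries 9 fell in intestine and 2 in stomach. Over all genes 1686 of 16917 were called lower in intestine and 1172 in stomach. With aorta left out these were 1941 and 1617 of 16703. The median log2 difference of the 12 in intestine was -1.16, against 0.34 over all tested genes. In heart 5 rose, a count that was 10 without aorta and 3 when heart 3 was also left out. Bladder had 2 higher, Egr2 and Fosb, with 4 and 11 in those fits. Over all genes 1020, 1929 and 1455 were called higher in heart in these fits, and 1406, 1842 and 2480 in bladder. Egr2 was at 76, 123, 80 and 38 in intestine 1 to 4 and at 2941, 3803 and 1945 in bladder. Nr4a1, a nuclear receptor of the same early wave, fell by 1.54 ± 0.32 in intestine (adjusted p = 0.00137). Lung had 2 lower and aorta 8 higher, while limma called none in kidney (1 higher at an unadjusted p under 0.05). Near the read ceiling were 11 of the 12. There the signal may follow the worth of 1 read, which was at most 0.5772 in intestine and 0.6654 in stomach. It was 0.7765 or more in bladder and 0.456 to 1.1337 in kidney. The part of the ceiling in the lower calls of intestine and stomach was not tested. Of the 3 ternary complex factors, Elk3 rose in heart by 0.97 ± 0.29 (0.0274). All 3 fell in aorta, where 42.8% of all genes were called lower. In aorta Elk1 fell by 3.67 ± 0.82 (0.00147). Its signal was 9, 0 and 126 in aorta 1, 2 and 3, and 0 reads allow up to 28.3 and 12.2 in aorta 1 and 2. The value in aorta 3 lay between the lowest and highest outside aorta, 27 in bladder 3 and 248 in intestine 4. The part of shallow depth in the Elk1 difference was not tested.

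Of 22 listed cofactors and repressors of the SRF complex, 7 rose in heart (10 without the aorta libraries and 9 when heart 3 was also left out). Over all genes 1020 of 16917 (6.03%) were called higher in heart, and 1929 of 16703 and 1455 of 16641 in those other fits. In intestine 8 fell and 5 rose, where 9.97% were called lower and 15.5% higher, and in stomach 6 fell and 1 rose, where 6.93% were called lower and 13.4% higher. Differences between tissues in these counts were not tested. The median difference in heart was 0.42, against -0.19 over all tested genes. Hdac9, a histone deacetylase that binds MEF2 factors, was at 1145, 478 and 516 in kidney and rose there by 2.99 ± 0.62 (adjusted p = 0.00338). In bladder it was at 48, 10 and 5 and fell by 3.40 ± 0.62 (0.000858). Hdac9 and Mef2c were thus both called higher in kidney and lower in bladder. Hey2, a Notch-induced repressor, also rose in kidney, by 1.87 ± 0.34 (0.000997), and fell by 1.98 ± 0.34 in bladder (0.000473) and fell by 2.23 ± 0.34 in stomach (7.73e-05). Msx1 and Msx2, homeobox repressors, rose in heart by 1.83 ± 0.32 (0.00059) and 4.91 ± 0.79 (0.000326). Csrp2, a LIM protein that bridges SRF and GATA factors, fell by 2.02 ± 0.18 in intestine (9.29e-08) and fell by 0.77 ± 0.21 in kidney (0.0201). Bladder had 3 lower and 1 higher, kidney 3 higher and 1 lower, lung 1 higher, and aorta 5 higher and 8 lower.

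**Figure D5:**
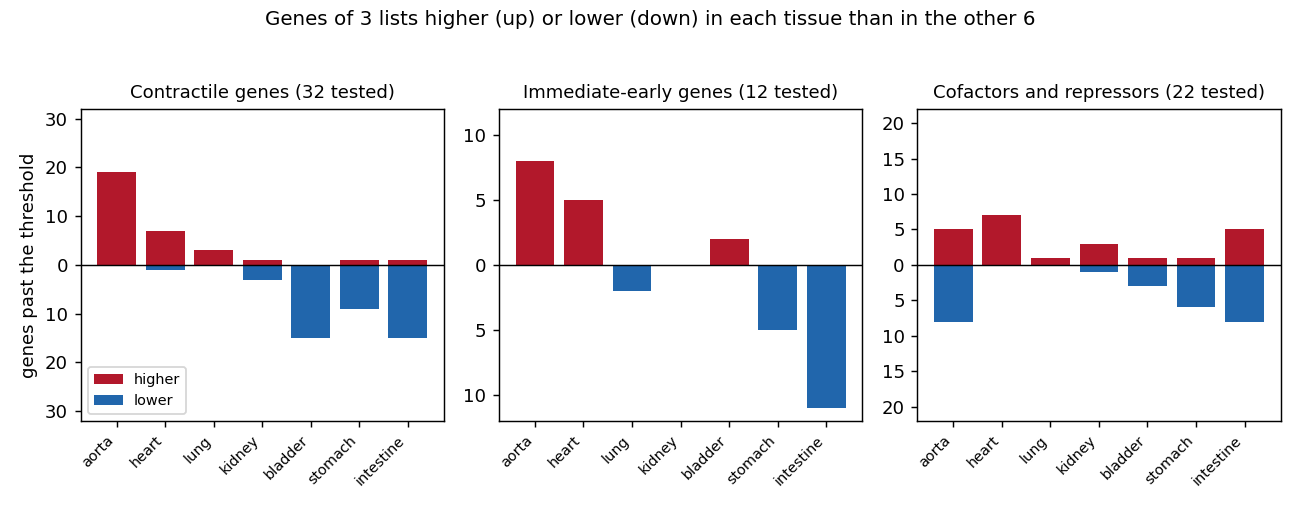
Number of genes past the threshold in each tissue against the other 6, higher above the line and lower below it, for 3 lists of genes around the regulators. In bladder 15 of 32 contractile genes are lower and none higher, in intestine 11 of 12 immediate-early genes are lower, and in aorta 19 contractile genes are higher.

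Genes with profiles most like each regulator were taken as the 3 with the highest Pearson r of log2(signal + 1) over the 19 libraries outside aorta; r over all 22 is given beside it. The libraries share tissue, depth and cell mix, so these values are descriptions. Klf5 had the closest companions, Sdk1, an adhesion molecule, at 0.967 (0.898 over 22), Fbxl14 at 0.963 (0.269) and Tmem45b at 0.955 (0.897). Mef2c was most like Itga7, a laminin-binding integrin, at 0.962 (0.917), Lrrc10b at 0.951 (0.458) and Asb10 at 0.919 (0.864). Mrtfa was most like Vcl, at 0.94 (0.633), whose promoter window is printed above, followed by Zbtb44 at 0.936 (0.605) and Nisch at 0.931 (0.837). Mef2d was most like Trp53inp2 at 0.936 (0.885), Celf1 at 0.93 (0.863) and Dot1l at 0.929 (0.628). Myocd was most like Plxnd1, a semaphorin receptor, at 0.921 (0.917), then Carmn, a noncoding RNA of smooth muscle and heart, at 0.906 (0.321), and Pcdh1 at 0.904 (0.757). Klf4 was most like Egr3 at 0.915 (0.637), the cytokine Il6 at 0.904 (0.839) and Tob1 at 0.879 (0.83). Mrtfb was most like Espl1 at 0.906 (0.522), Mul1 at 0.873 (0.025) and Cdc45 at 0.872 (0.699), Mef2a like Zbtb10 at 0.881 (0.71), Hace1 at 0.86 (0.298) and Phldb2 at 0.859 (0.856). Srf had the weakest companions, Ggt5 at 0.81 (0.71), Pbx2 at 0.807 (0.894) and Iqsec3 at 0.796 (0.303). Several of these values dropped once the aorta libraries were added, down to 0.025 for Mul1.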

How the data were processed

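The members and all gene lists were chosen with earlier results of these data known. Per the labels' protocols, at most 10 ng of RNA entered SMART-Seq v4. The submitters' processing notes name, without roles, the build mm39, the aligner STAR 2.7.10a, the counter featureCounts 2.0.4, and also Picard 3.0.0, Trimmomatic 0.39, DESeq and DESeq2 1.36.0. The authors deposited a signal per gene and library: whole numbers scaled per library, judged from the values. A library's step was taken as the worth of 1 read, and between 99.73% and 100% of values lay on its multiples. Where a step is under 1 every whole number does so, and that share then cannot check the step. It bears mainly on the large steps of the aorta libraries and heart 3. In bladder 2 near-tied steps were settled by a rule added after seeing the data, so its depth is less certain. Dividing by the step gave rebuilt reads; without molecular identifiers, limits cover counting error only. Exon lengths came from GENCODE M21 for 96.2% of genes.

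The 16917 genes that reached a signal of 10 in 3 or more libraries were tested with limma 3.58.1 (trend; R 4.3.3) on log2(signal + 1), in 1 fit of 7 tissue groups taken from the labels. Fold changes on this scale can understate low genes, and can enlarge a difference where a shallow library is at 0. Aorta against the other 6 gave -3.46 for Myocd, -3.33 for Srf and -2.99 for Mrtfb. With a pseudocount of 10 these were -2.15, -2.22 and -1.88. Contrasts were each tissue minus the plain mean of the other 6 tissue means, and all 21 pairs. The Benjamini-Hochberg adjusted p was taken over all tested genes, with a threshold of 0.05. Alternatives were a pseudocount of 10, no filter, other scaling, array weights, a replicate block, libraries left out, voom, edgeR 4.0.16 and DESeq2 1.42.0 on rebuilt reads. The fit was checked on simulated data for the recovery of raised genes above the median abundance. That check does not cover low genes or lowered ones. Named genes were the members, up to 4 list genes with the largest called difference in a tissue or 2 with the highest signal, and 3 genes most like each member. Acta2, Cspg4, Cdh1 and Epcam were named after their values were seen. Some gene lists are not reported here.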

Additional observations from a re-analysis of the deposited data

Results flagged for a closer look

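Myocd in intestine 4, at a signal of 196, lay apart from the other 3 intestine libraries, at 295, 298 and 294; its gap to the nearest of them was large for the range of the group. Chance sets apart a library in about 1 in 20 groups of this size, and 9 regulators were looked at in intestine.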

How the results depend on the processing

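Of 19 calls of a regulator in a tissue against the other 6, 11 held in every alternative run, 10 of 13 outside aorta and 1 of 6 in aorta, and no difference that was called changed sign. The number of regulators called was 6 in aorta, against 2 with array weights, 3 with voom, 1 with edgeR and 3 to 7 with 1 library left out. Calls over all genes moved too, and the share of all genes called in either direction is given after each tissue. In aorta it was 51.9%, against 13.0%, 22.4% and 28.7% with array weights, voom and edgeR. In lung the number was 2, against 4 with array weights, 4 with DESeq2, 4 without the aorta libraries, 4 also without heart 3, and 1 to 2 with 1 library left out; the share was 7.91%, against 28.3%, 18.4%, 26.3% and 36.5% in those 4 fits. In kidney it was 1, against 5 with array weights, 4 with voom, 2 with edgeR, 3 with DESeq2 and 1 to 3 with 1 library left out; the share was 10.5%, against 22.4%, 22.6%, 13.0% and 18.1%. In bladder it was 3, against 5 without the aorta libraries, 5 also without heart 3, 5 with DESeq2 and 2 to 5 with 1 library left out; the share was 15.7%, against 25.2%, 35.4% and 23.2%. In stomach it was 2, against 6 with array weights, 5 with voom and 1 to 3 with 1 library left out, with a share of 20.4%, against 55.9% and 39.5%. In intestine it was 2, against 7 with array weights, 6 with voom, 5 with DESeq2 and 2 to 5 with 1 library left out, with a share of 25.5%, against 59.7%, 46.7% and 35.7%. In heart the number stayed at 3 with any 1 library left out, and across tissues it was 6, with 5 to 8 with 1 library left out, 9 with array weights, 9 with voom, 4 with edgeR, 7 with DESeq2, 7 without the aorta libraries, 8 also without heart 3 and 8 with a pseudocount of 10. Aorta 1, 2 and 3 carry weight here: without aorta 1 the count was 3 in aorta and 5 in bladder and intestine. Fits to reads give low counts less weight by construction, while array weights are estimated from the scatter of each library. Causes of the differences in calls were not tested. Libraries with the same replicate number were not more alike than others (median correlation of deviations -0.0101 for the same number and 0.00917 for others). Small groups and differences in depth and cell mix limit this check, so it cannot decide whether libraries came from the same mouse. With a replicate block 5 regulators passed across tissues, Myocd being lost, and 9093 genes against 10087. Depth limits all low values in aorta and heart 3.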

Other observations

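Of 14 listed genes that rise when smooth muscle leaves its contractile state, 6 rose and 1 fell in bladder, where Klf4 was highest, and 5 rose and 6 fell in aorta. In bladder 9 rose without the aorta libraries and 11 when heart 3 was also left out, while calls over all genes there grew as well, with 15.7%, 25.2% and 35.4% called in either direction in the 3 fits. Of the 14, 13 came near the read ceiling, and some, such as Dcn, also mark fibroblasts. Tnc, the matrix protein tenascin C, rose in bladder by 2.67 ± 0.37 on the log2 scale against the other 6 tissues (adjusted p = 7.8e-05, limma) and in intestine by 2.74 ± 0.33 (4.56e-06). Col8a1, a collagen chain of injured arteries, rose in bladder by 2.33 ± 0.54 (0.00564), and Vcam1, an adhesion molecule, by 2.08 ± 0.45 (0.00357). Spp1, osteopontin, went the other way in bladder, where it fell by 3.63 ± 1.02 (0.0193), and rose in kidney by 4.60 ± 1.02 (0.00557) and in stomach by 4.32 ± 1.02 (0.0047). In intestine 2 rose and 5 fell, among them Mgp, an inhibitor of calcification, which fell by 1.78 ± 0.28 (8.77e-05).

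Of 13 other KLF and MEF2 genes tested, Klf2, which responds to blood flow in endothelium, rose in heart by 1.24 ± 0.31 (adjusted p = 0.0091, limma). Klf15, a repressor of cardiac and smooth muscle growth, rose in lung by 1.64 ± 0.36 (0.00799), and it fell by 1.04 ± 0.32 in intestine (0.0235). Klf3 rose in bladder by 0.68 ± 0.14 (0.00264). In stomach 4 fell, of which Klf7 fell by 0.86 ± 0.23 (0.0104) and Klf9 fell by 0.73 ± 0.23 (0.0282).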
